A study of Homo sapiens with 50 samples.

Results

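The cytosolic ribosomal protein genes were followed through the 50 arrays of a study of RAD9, a DNA damage checkpoint protein, in the bystander response of human lung cancer cells to α particles. Members were chosen by symbol: RPL or RPS followed by digits with an optional final A, X or L, together with RPLP0, RPLP1, RPLP2 and RPSA, leaving out RPS27L, the RPS6K kinases and pseudogenes. The rule found 80 genes of the 25940 gene names on the array, 49 of the large and 31 of the small ribosomal subunit. They were measured by 163 of 34127 probes, and each gene was represented by its brightest probe. Only 36 members had a single probe.

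The cells were H1299, a line from a human lung carcinoma of the non-small cell type with its own level of RAD9, and H1299shRAD9, the same line carrying a stably integrated, retrovirally delivered short hairpin RNA against RAD9. The study used more than 1 stable H1299shRAD9 clone, and the clone behind each array was not given in the sources used here. In each line there were 5 groups of 5 samples, all harvested at 4 h. CTL cells were sham-treated. DBP cells were directly irradiated with 1 Gy of α particles (4He ions) in dishes whose neighbouring bystander cells formed micronuclei, and BP cells were those bystander-positive neighbours. DBN and BN cells were the directly irradiated and the bystander cells of dishes in which the bystander cells formed no excess of micronuclei. DBP, BP, DBN and BN were thus sorted by the micronucleus count, an outcome of the exposure.

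The ribosome is built of ribosomal RNA and one copy of nearly every ribosomal protein, so the cell makes these proteins in matched amounts and degrades those not assembled. Most of their mRNAs begin with a tract of pyrimidines, the 5′ terminal oligopyrimidine (TOP) motif, through which mTOR signalling controls their translation. Free RPL5 and RPL11, joined to 5S ribosomal RNA, bind the ubiquitin ligase MDM2 when ribosome assembly fails. Ribosomal protein mRNAs are among the most abundant in proliferating cells.

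The start of these genes carries the feature for which the family is known. RefSeq (GRCh38.p14) gave a promoter for 63 of the 80 members. A C followed by at least 4 further pyrimidines, after a purine and within 10 bases of the annotated start on the coding strand, was found in 38 of them, or 60.3%, against 24.8% of all 27305 promoters. The letters CCGGAAG, on either strand of the 300-base promoter, were in 33.3% of the members' promoters and 10.7% of all. The 30 bases before and the 20 after the start are given for members described later, with the tract in capitals. RPS26 and RPS29, the members called in bystander-negative cells, had no such tract in these windows. RPL27A, the member called in bystander-positive cells, had one, as did RPLP0 and RPS6. Whether the tract goes with these calls was not tested.
RPLP0, chr12:120201092-120201141, minus strand: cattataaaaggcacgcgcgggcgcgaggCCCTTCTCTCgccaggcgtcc
RPS6, chr9:19380217-19380266, minus strand: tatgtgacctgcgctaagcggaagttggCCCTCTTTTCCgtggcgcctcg
RPL27A, chr11:8682762-8682811, plus strand: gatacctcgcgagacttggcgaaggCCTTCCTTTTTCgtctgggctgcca
RPS26, chr12:56041888-56041937, plus strand: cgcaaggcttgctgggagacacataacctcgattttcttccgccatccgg
RPS29, chr14:49598691-49598740, minus strand: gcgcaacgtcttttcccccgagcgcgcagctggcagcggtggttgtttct

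What a probe can see is set by its letters. RPL10L, an autosomal copy of RPL10 known from testis, was read by a 60-base probe that shares a run of 23 bases, in capitals, with a probe of RPL10 itself. Signal of RPL10 may therefore reach this probe, and the RPL10L level is uncertain. The probes of RPL3L and RPL39L shared at most 7 and 6 bases in a row with those of RPL3 and RPL39. Probes were compared only with probes, not with whole transcripts, so signal of RPL3 or RPL39 at these probes was not tested. Many other members have near-identical processed copies elsewhere in the genome, whose share of the signal was not tested.
RPL10L probe, hg19 chr14:47120514-47120573: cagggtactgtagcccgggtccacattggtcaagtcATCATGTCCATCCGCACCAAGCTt
RPL10 probe, hg19 chrX:153628866-153628925: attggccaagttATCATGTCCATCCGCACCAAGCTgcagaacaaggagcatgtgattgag

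Levels are given as log2 intensity above the median probe of the same array, so a value of 11 lies 11 doublings above that median. All 80 members passed the background criterion and 79 were well above background on every array. The exception was RPL3L, a form known from skeletal and heart muscle, with a mean level of −0.42 and well above background on 49 arrays. The brightest probe of RPL27A also read low, at 2.11, and that of RPL39L, known from testis and some tumours, at 5.86. Levels of different probes cannot be ranked against each other, since each probe hybridises with its own efficiency.

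Brightness had a cost at the upper end. The scanner saturated on at least 1 array for 62 members, on 25 or more arrays for 8, and never for 18. RPS2 was saturated on 48 arrays and RPS10 on 46. For such members a difference between groups is compressed, and where all arrays of both groups were saturated, as for RPS2 and RPS10 in the CTL cells of both lines, no difference is given.

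Across all 50 arrays the members varied little. Their median standard deviation was 0.257 log2 units, against 0.346 over the 20079 features tested, and 77 of the 80 lay below that median. RPL27A varied most (0.54), followed by RPL3L (0.42). Within groups the members rose and fell together from array to array, with a median Pearson correlation of 0.66 over 3160 pairs of genes across the same 50 arrays. After quantile normalization the median was 0.08, so this description depends on how arrays are scaled. For 76 mitochondrial ribosomal protein genes it was 0.56 on the array median.

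The mean of the 80 members on each array shows what scaling does. In H1299shRAD9 it was 10.92 ± 0.17 (SD, n = 5) in CTL. In the exposed groups it was 10.91 ± 0.16 (DBP), 10.96 ± 0.08 (BP), 10.93 ± 0.10 (DBN) and 10.92 ± 0.13 (BN). The exposed groups of this line lay within 0.04 log2 units of their control. In H1299 it was 10.69 ± 0.23 in CTL, and 10.88 ± 0.18 (DBP), 10.86 ± 0.22 (BP), 10.61 ± 0.33 (DBN) and 10.68 ± 0.14 (BN) after exposure. Replicate 1 of H1299 DBN lay apart at 10.02, and replicate 3 of H1299 CTL was the lowest control at 10.32. On the DBN array 83.4% of probes were well above background, and its part in the low mean was not tested. On the array of H1299 CTL replicate 3 the median intensity was 343.6, and 43 members were saturated. On the other H1299 CTL arrays the median intensity was 163.4 to 204.6, and 2 to 20 members were saturated. The part of saturation in the low mean of that control was not tested. Under quantile normalization all 10 group means lay between 10.80 and 10.86. These data cannot tell a shift of the whole family from a shift of the array median against which it is measured.

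**Figure D1:**
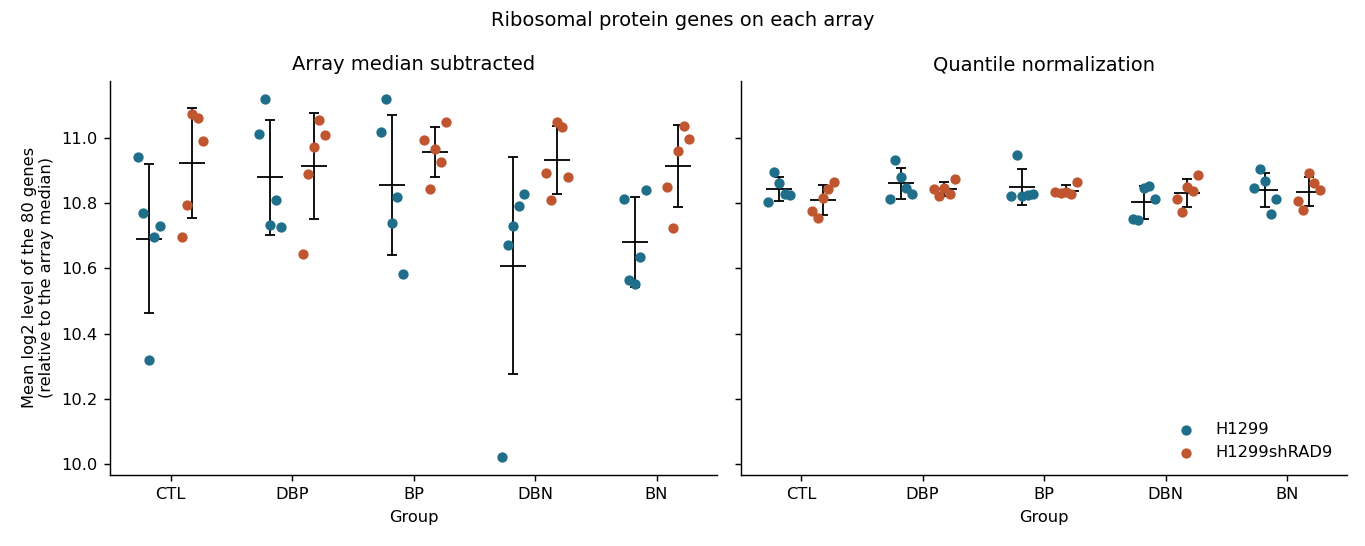
Mean log2 level of the 80 members on each of the 50 arrays, by group, scaled to the array median and by quantile normalization. On the array median the H1299 groups spread from 10.02 to 11.12 and the H1299shRAD9 groups from 10.64 to 11.08, and quantile normalization brings all group means to between 10.80 and 10.86.

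Unirradiated H1299shRAD9 cells read higher than H1299 for most members on the array median, a direction that flipped to a median of −0.05 under another scaling, and no member passed the test. The CTL arrays of the lines shared no slide, so line and slide cannot be told apart. The difference was above 0 for 74 of 80 members, with a median of 0.21 log2 units (range −0.31 to 0.79), where the median of all features was 0.06. Without replicate 3, which in H1299 had 43 saturated members, the median was 0.11, and without replicate 1 it was 0.34. None was called by limma at p under 0.006 with a false discovery rate under 10%, whereas 14.1% of all features were. At an unadjusted p under 0.05 there were 24 of 80 members, against 33.9% of all features. The 5 arrays of one line did not overlap those of the other for 3 members, RPS3 and RPS18 among them, against 13.2% of features.

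RPS3, which lies at the entry of the mRNA channel and also has DNA repair roles, was among the few members below 0. Its levels were 9.14, 9.28, 9.23, 9.28 and 9.13 in H1299shRAD9 CTL and 9.71, 9.36, 9.34, 9.28 and 9.33 in H1299 CTL, a difference of −0.19 (limma adjusted p = 0.23), and replicate 1 of H1299 stood above the other H1299 samples. RPS3 was called lower in H1299shRAD9 under quantile normalization (−0.33, limma adjusted p = 0.0262) and under normexp background correction (−0.36, limma adjusted p = 0.0382). RPS18, at the head of the small subunit, was 12.08 ± 0.08 against 11.67 ± 0.33, a difference of 0.41 (limma adjusted p = 0.08) that was −0.01 under quantile normalization.

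Members grouped by role gave no call in CTL cells. The P stalk, where elongation factors dock, is RPLP0 with RPLP1 and RPLP2, on a base with RPL12. RPLP0 read 11.59, 11.58, 11.79, 11.81 and 11.70 in H1299shRAD9 and 11.88, 11.62, 10.85, 11.50 and 11.60 in H1299. The low H1299 replicate 3 widened the spread, and the difference of 0.20 had a 95% interval of −0.16 to 0.57. RPL5 and RPL11, the protein arms of the 5S particle, differed by 0.25 and 0.21 (limma adjusted p = 0.178 and 0.296). RPS6, the substrate of the S6 kinases, differed by 0.36 (limma adjusted p = 0.147). Under quantile normalization the sign turned for RPLP0 (−0.16), RPL11 (−0.09) and RPS6 (−0.05). Medians over the role lists were 0.26 for the P stalk, 0.23 for the 5S particle, 0.21 for the proteins that bind MDM2, 0.37 for the mRNA channel and 0.26 for genes of Diamond-Blackfan anaemia.

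The paralogs of RPL39 and RPL10 were not called either. RPL39L read 5.41, 5.10, 5.84, 5.95 and 5.85 in H1299shRAD9 CTL, and 5.82, 6.26, 5.88, 5.83 and 5.91 in H1299 CTL. The lowest samples were replicates 1 and 2 of H1299shRAD9 and the highest was replicate 2 of H1299, and the difference of −0.31 did not pass the test (limma adjusted p = 0.217). RPL10L read 8.99 ± 0.24 against 8.96 ± 0.16, a difference of 0.02 that was −0.10 under quantile normalization.

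In H1299shRAD9 cells, irradiation or a bystander position changed no ribosomal protein gene past the test on the array median with all replicates. Each of these comparisons used the same 5 CTL arrays, and replicate number was a block. For DBP, none was called against 1.3% of features, and 6 reached an unadjusted p under 0.05 in limma against 13.9%. For BP none was called (1.61% of features) and 1 reached that p (10.8%). For DBN none was called (2.8%) and 1 reached it (14.3%). For BN none was called (0.0299%) and 2 reached it (13.5%). No member had groups that did not overlap, against 1.49%, 1.2%, 2.42% and 1.76% of features. Median differences from CTL were 0.01, 0.04, 0.02 and −0.01.

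The 95% intervals can bound a change only for members not held at the scanner's ceiling. Leaving out those saturated on all arrays of a group, they lay within a 1.5-fold change in either direction for 76 of 78 members in DBP, 77 of 78 in BP, 77 of 78 in DBN and 74 of 74 in BN. Among members with no saturated spot in either group they did so for 42 of 44, 42 of 43, 54 of 55 and 59 of 59. All 5 pairs moved the same way for 5, 4, 5 and 4 members, against 13.3%, 11.7%, 14% and 14.6% of features. In DBP, RPL27A was lower by 0.32 (interval −0.52 to −0.12, limma adjusted p = 0.175) and RPL39L higher by 0.35 (limma adjusted p = 0.271). RPL27A was called lower in DBP under 75th percentile scaling, quantile normalization and the authors' values. Its difference was −0.36 in each (limma adjusted p = 0.0755, 0.0849 and 0.0992).

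In H1299 cells, the readings of directly irradiated, bystander-positive dishes lay above CTL for most members on the array median, without a call. The DBP median was 0.02 under quantile normalization and −0.13 under normexp background correction. Under normexp the member mean of DBP replicate 3 was 8.98, with the other DBP replicates between 10.20 and 10.56. That array held 3 spots with a local background over 1000, and their part was not tested. In DBP, 77 of 80 differences were above 0 with a median of 0.21. None was called by limma, against 0.0349% of features, and 3 reached an unadjusted p under 0.05, against 5.57%. The groups did not overlap for 1 member (0.936% of features). All 5 pairs moved the same way for 29 members, against 8.96% of features, which with members that move together on an array is not 29 separate results. In BP the median was 0.16, none was called (0% of features) and 11 reached an unadjusted p under 0.05 in limma (5.67%). No BP groups were apart (0.433%), and the 5 pairs shared a direction for 12 members (5.25%). RPL35A, of the large subunit, differed in BP by 0.40 (limma adjusted p = 0.823). Within slides that held both groups, the DBP median was 0.00, 0.35, 0.10 and 0.39. The last was on the slide of CTL replicate 3, the control array with 43 saturated members.

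In the H1299 cells of bystander-negative dishes the medians were near 0. In DBN the median was −0.08 with none called against 0.00996% of features, and in BN it was 0.00 with none called against 0%. No member of either reached an unadjusted p under 0.05 in limma, against 3.28% and 3.41% of features. None had groups apart (0.757% and 0.199%), and the 5 pairs shared a direction for 0 and 2 members (5.14% and 5.8%). Without RPS2 and RPS10, saturated on all arrays of a group, the intervals lay within 1.5-fold for 78 of 78 members in BN and 18 of 78 in DBN. Without replicate 1, the array with the low member mean, the DBN median was 0.13.

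**Figure D2:**
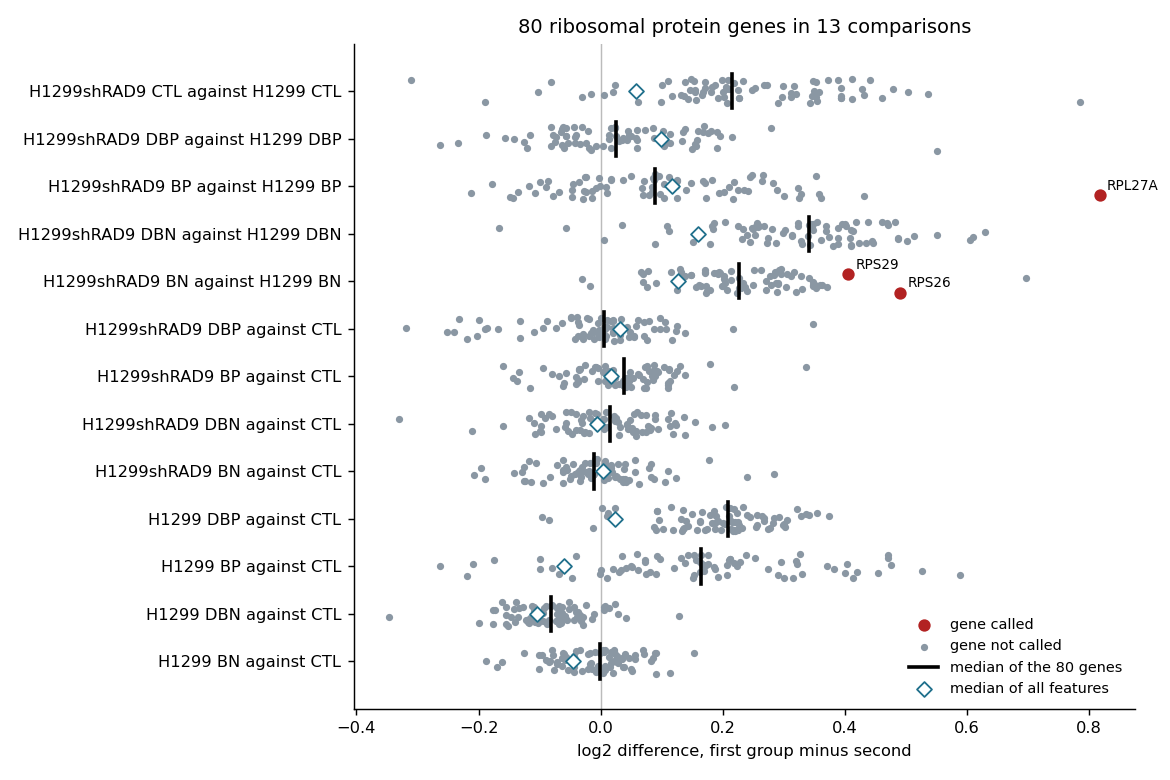
Log2 differences of the 80 members in the comparisons of group means, each point a gene, with bars for the median of the members, diamonds for that of all features and red points for genes called. On the array median the CTL, DBN and BN line comparisons and H1299 DBP and BP lie mostly above 0, which quantile normalization removes, and the H1299shRAD9 comparisons with their own control centre between −0.01 and 0.04.

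Whether the response to exposure differed between the lines was tested as an interaction. For DBP the median was −0.18 on the array median, with 8 members above and 72 below 0. It was 0.03 under quantile normalization and 0.18 under normexp, which includes the low H1299 DBP replicate 3. On the array median none was called by limma (0% of features) and 11 reached an unadjusted p under 0.05 (7.74%). For BP the median was −0.12, but 0.02 and 0.10 under those settings, with none called (0%) and 5 at that p (6.51%). For DBN (median 0.10, 0.0149% of features called) and BN (median 0.00, 0%) no member was called by limma and none reached that p, against 7.02% and 7.29%. A difference in response between the lines was therefore not shown for any member.

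In the bystander groups the lines differed past the test for 3 members, and in the directly irradiated groups for none. The lines shared no slide in CTL, DBP, DBN or BN and 1 slide in BP, so line and slide cannot be told apart in those 4 comparisons and hardly in BP. In DBP cells the median difference of H1299shRAD9 from H1299 was 0.02 and none was called, against 5.97% of features, with none at an unadjusted p under 0.05 in limma, against 20.6%, and none with groups apart (7.15%). In BP cells it was 0.09 and RPL27A alone was called, against 7.23%, with 6 members at that p (22.4%) and 3 with groups apart (8.74%). In DBN cells it was 0.34 and none was called by limma, against 2.47%, with 6 at that p (17.1%) and 6 with groups apart (5.53%). In BN cells it was 0.23 and RPS26 and RPS29 were called, against 8.25%, with 19 at that p (25.4%) and 5 with groups apart (8.94%). In all 5 conditions together, 37 members (46.2%) were higher in every one and none lower, against 38.4% and 18.3% of features. With arrays scaled to the members themselves these were 11 and 13, but that scaling sets the members' mean equal on every array. Quantile normalization, which gave 7 and 17, forces the same distribution of levels on every array. A shared shift of such bright probes is removed wholly by the former and largely by the latter, so these counts cannot test for one. No direction can be given for the family between the lines.

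RPL27A encodes a protein of the large subunit. Its only probe lies in hg19 at chr11:8711092-8711151 on the plus strand and begins as follows, shown because this probe carries the line difference with the lowest adjusted p among the members.
RPL27A probe, first 30 bases: tgctgaaaagtaatattttctctttcgaga

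In BP cells RPL27A read 2.14, 2.10, 2.73, 2.72 and 2.87 in H1299shRAD9 and 1.63, 1.88, 1.72, 1.81 and 1.45 in H1299, with no overlap. The difference was 0.82 (interval 0.42 to 1.21, limma adjusted p = 0.0313), a 1.76-fold change. In CTL it read 1.99, 2.10, 2.90, 3.16 and 3.13 against 2.18, 1.60, 1.81, 2.0 and 1.77, and the groups overlapped. The CTL difference of 0.79 had a limma adjusted p of 0.045 but an unadjusted p just above 0.006. In DBP, DBN and BN the differences were 0.55, 0.63 and 0.70 (limma adjusted p = 0.279, 0.319 and 0.076). In every H1299shRAD9 group replicates 1 and 2 lay below replicates 3, 4 and 5. The same order held in every H1299shRAD9 group for RPL8, RPL29, RPL10L and RPS14, though not for RPLP0 or RPL26, so it is not particular to RPL27A. On slide 3, replicate 2 of DBN and BN read 1.90 and 1.88 while replicate 3 of DBP and BP read 2.59 and 2.73. Replicate and condition coincide on that slide, and the part of slide in the split was not tested. Clone and replicate cannot be told apart, as the labels name no clone. Which part of the transcript the probe reads was not tested.

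RPS26 and RPS29 are small-subunit proteins, RPS26 at the mRNA exit. In BN cells RPS26 read 11.55, 11.40, 11.58, 11.75 and 11.62 in H1299shRAD9 and 10.91, 10.87, 10.93, 11.24 and 11.49 in H1299. The highest H1299 sample reached into the H1299shRAD9 range. The difference was 0.49 (interval 0.17 to 0.81, limma adjusted p = 0.0685). RPS29 read 11.57, 11.52, 11.60, 11.85 and 11.73 against 11.38, 11.16, 11.09, 11.19 and 11.42, with no overlap and a difference of 0.41 (interval 0.14 to 0.67, limma adjusted p = 0.0709). In CTL they differed by 0.43 and 0.35 (limma adjusted p = 0.059 and 0.08), and RPS29 by −0.03 under quantile normalization. Both calls were lost with arrays scaled to the members, where no member but RPL27A in BP was called.

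**Figure D3:**
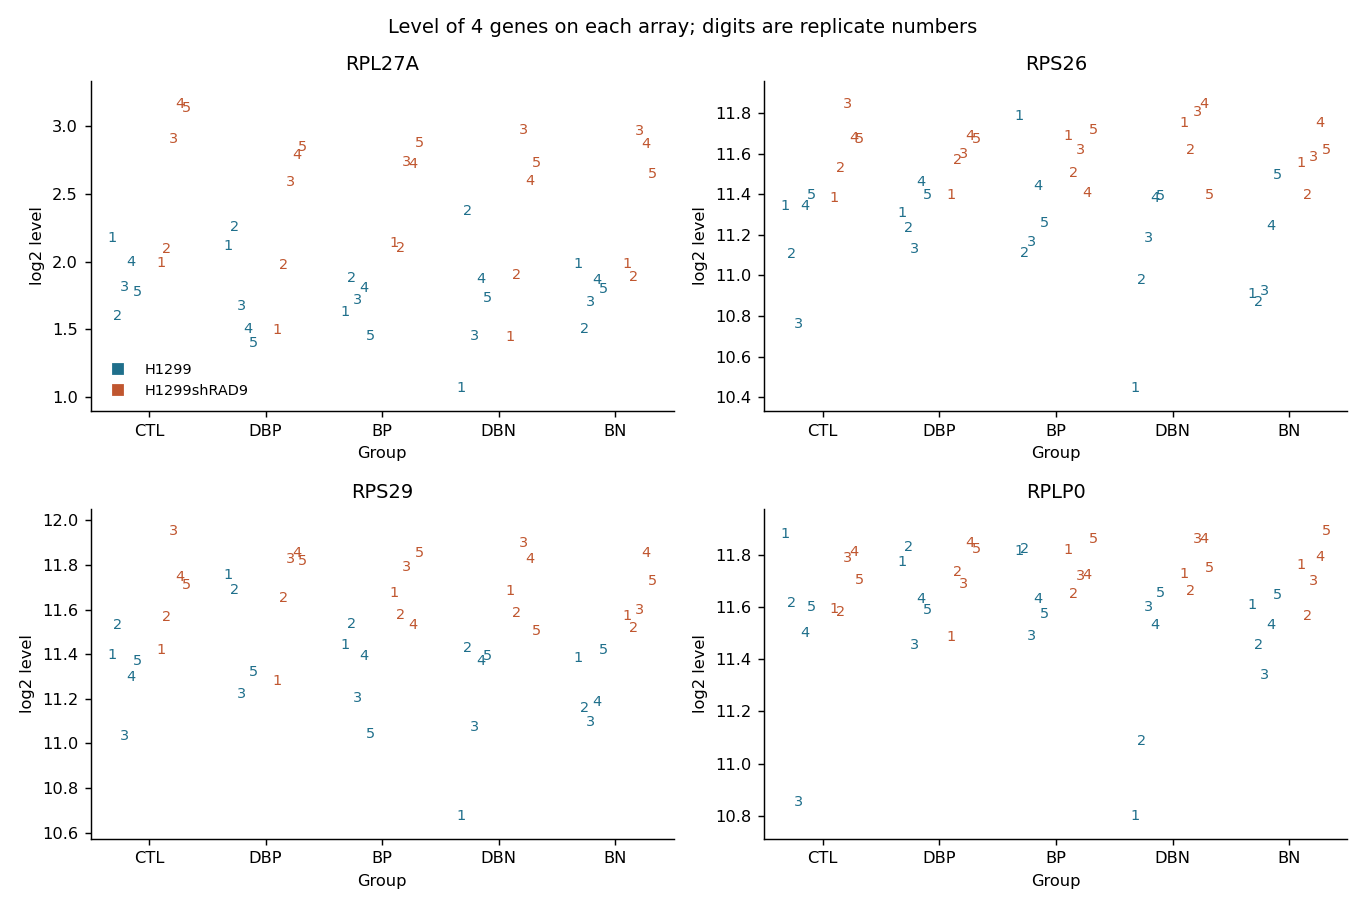
Log2 level of RPL27A, RPS26, RPS29 and RPLP0 on each array, by group and line, each digit being a replicate number. The RPL27A samples of H1299 lie between 1.07 and 2.37, and in each H1299shRAD9 group replicates 1 and 2 of RPL27A lie below the other replicates, as they do for some other members.

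Of 78 other probes of the members past the background criterion, 4 were called between the lines in CTL, against 14.1% of all features. They were 2 in DBP (5.97% of features), 3 in BP (7.23%), 1 in DBN (2.47%) and 2 in BN (8.25%). RPS26 had probes at 3 places on hg19 chromosome 12, starting at 56435739, 56437160 and 56437923 from the upstream to the downstream end. Their mean line differences over the 5 conditions were 0.99, 0.61 and 0.41 in that order, at mean levels of 3.26, 10.03 and 11.41. The middle probe was called in CTL (0.46) and BP (0.69) and the upstream one in DBN (1.19) and BN (1.01). The middle sequence is shown because it was called where the brightest probe was not.
RPS26 middle probe, hg19 chr12:56437160-56437219: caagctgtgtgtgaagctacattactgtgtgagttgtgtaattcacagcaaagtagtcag

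RPS29 gave opposite signs. The probe for its transcript NM_001030001, at a level of 2.37, was lower in H1299shRAD9 in CTL by 0.61 (limma adjusted p = 0.041) and in DBP by 0.93 (limma adjusted p = 0.078), while its brightest probe was higher by 0.35 and 0.19. A probe of RPS4X, the X-linked form of a small-subunit protein, was higher in CTL (0.83), DBP (1.10) and BP (0.93) at a level of −0.80, near the array median. A probe of RPS6 at a level of 0.01 was higher in CTL by 0.67 (limma adjusted p = 0.027). Probes of RPL13A (level 10.25) and RPL23A (level 10.33) were called higher, in BP by 0.52 and in BN by 0.41. On the array median with all replicates, no probe of any member was called in a comparison with CTL inside either line, or in an interaction.

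**Figure D4:**
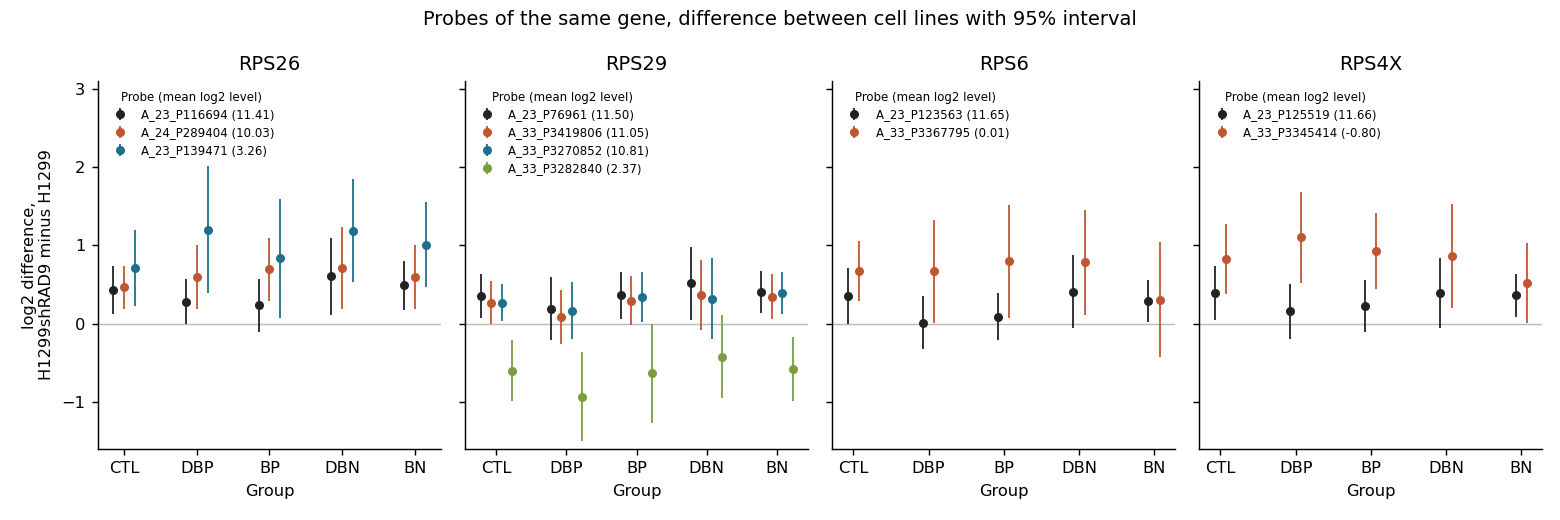
Log2 difference of H1299shRAD9 from H1299 for each probe of RPS26, RPS29, RPS6 and RPS4X, by condition, with 95% intervals as bars and the brightest probe in black. The RPS29 probe at a level of 2.37 lies below 0 where the other RPS29 probes lie above it, and the RPS26 probes range from 0.41 to 0.99 in their mean over the 5 conditions.

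Of 33 genes for factors that assemble ribosomes, 8 (24.2%) were higher in H1299shRAD9 CTL and none lower, against 14.1% of all features called in either direction, with a median of 0.36. Among them were NOP16 (0.85, limma adjusted p = 0.015), RRS1 (0.82, 0.012), which assembles the 5S particle, and NOLC1 (0.78, 0.014), a nucleolar chaperone. In DBP, BP, DBN and BN 6, 7, 3 and 8 were higher and none lower, against 5.97%, 7.23%, 2.47% and 8.25% of all features called. These shares are a description, and the list was not tested against other genes. The medians stayed above 0 under every scaling tried, at 0.29 in CTL under quantile normalization and 0.13 with arrays scaled to the ribosomal proteins. Whether these genes differ from the ribosomal proteins in size of change was not tested.

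Of 11 RNA polymerase I genes, which transcribe ribosomal RNA, POLR1B (0.60) and POLR1C (0.60) were higher in CTL and none was lower, a share of 18.2% against 14.1% of all features. Of 13 regulators of growth and TOP translation, MYC, a transcription factor that drives ribosome production, was higher by 0.86 (limma adjusted p = 0.026) and RPS6KB1 by 0.32, while RPS6KB2 was lower by 0.54, which is 3 of 13 or 23.1%. Both RPS6KB genes encode S6 kinases. Of 13 other mRNAs with a TOP motif, NAP1L1 alone was called (7.69%), higher by 0.45. Of 76 mitochondrial ribosomal protein genes 4 were higher (5.26%, below the 14.1% of all features), with a median of 0.18 that was −0.06 when arrays were scaled to the cytosolic members. The only call from these lists against CTL within a line was RIOK1, a kinase of small-subunit maturation, higher in H1299shRAD9 DBP by 0.52 (limma adjusted p = 0.08).

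The targeted gene and the cell identity were checked on the same arrays. RAD9A read 3.65 ± 0.19 in H1299shRAD9 CTL and 4.01 ± 0.13 in H1299 CTL, lower by 0.36 (limma adjusted p = 0.0561), and missed the p of 0.006. It was not called between the lines in any exposed group either, with differences from −0.34 to 0.06. The epithelial keratins KRT8 and KRT18 and the mesenchymal VIM were well above background on all arrays. PTPRC, a marker of blood cells, was well above background on 50 arrays and was called higher in H1299shRAD9 CTL (1.31 against 0.11), while PECAM1, an endothelial marker, was so on 2 arrays. The part of these in the results was not tested. The arrays came from 13 slides.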

How the data were processed

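Total RNA was labelled with Cy3 and hybridised to 1-colour Agilent whole human genome arrays, 1 per sample. The deposited scanner tables hold the background-corrected intensity of each spot (processed signal, with the well-above-background, saturation and outlier columns as other flags) as the authors' Feature Extraction software wrote it. The deposited value table holds the authors' log2 values, used only as an alternative. Here the processed intensity was log2 transformed, spots with outlier flags were masked, spots of a probe were averaged, and the median of the 34127 non-control probes was subtracted on each array. Features missing or not well above background on 25% or more of arrays were left out, leaving 20079. A further 1.3-fold filter was not applied: it keeps 6 members.

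Groups came from the labels. limma 3.58.1 in R 4.3.3 fitted 17 comparisons over all features: 5 between lines, 8 against CTL with replicate number as a block, and 4 interactions. A feature was called when its p was under 0.006 and its false discovery rate (Benjamini-Hochberg) was below 10%. The scripts were tested on simulated data. Same-numbered samples of H1299shRAD9 correlated in their deviations from the group means, with every pair over 0.1 (mean 0.47 to 0.52). So did H1299 DBP and BN (0.40 and 0.41), but only 3 of 5 pairs did for BP and DBN (0.15 and 0.22). Numbers did not pair the lines (−0.06 to 0.07).

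Members, lists and tests were chosen with earlier results of these data known. Genes named are members called, members whose groups did not overlap, the role lists and, for related lists, the called genes. Alternatives were other scalings, normexp background correction with an offset of 50, other filters, the mean of a gene's probes, slide as a block, and leaving out each replicate. The number of arrays limits the precision. Probe positions are in hg19, as in the deposited files, and promoters in GRCh38.p14. Values of some genes are not reported here.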

Additional observations from a re-analysis of the deposited data

Results flagged for a closer look

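Within the groups of 5 arrays, 9 of 160 sets of values had 1 sample whose gap to its nearest neighbour exceeded Dixon's 95% value of 0.71 of the range. Chance gives about 1 in 20. The mean of the 80 members was 10.02 in H1299 DBN replicate 1, where the others lay between 10.67 and 10.83. On the same array RPL26 read 10.41 (others 11.02 to 11.27) and RPS7 10.08 (others 10.95 to 11.11). RPLP1 read 10.86 in H1299 CTL replicate 3 (others 11.63 to 11.93), with the spot saturated. RPS3 read 9.706 in H1299 CTL replicate 1 (others 9.285 to 9.358). RPL39L read 6.263 in H1299 CTL replicate 2 (others 5.817 to 5.907). RPL11 read 10.67 in H1299 BP replicate 5 (others 11.34 to 11.55). RPL12 read 11.21 in H1299shRAD9 BP replicate 2 (others 11.55 to 11.66). RPS14 read 11.3 in H1299shRAD9 DBP replicate 1 (others 11.68 to 11.81).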

How the results depend on the processing

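Among counts of members called, 282 stayed within 1.5 times the reported count under an alternative and 32 did not. The called differences of RPL27A, RPS26 and RPS29 did not reverse, while uncalled CTL differences of RPLP0, RPL11, RPS6, RPS18, RPS29 and RPL10L turned sign under quantile normalization. Between the CTL cells of the lines, where none was called, the count was 1 with the 75th percentile, normexp, probes well above background on all arrays or slide as a random block, 2 with quantile normalization (RPL27A higher, RPS3 lower), 3 with all groups in one fit or the mean of a gene's probes, and 0 to 7 leaving out a replicate (7 without replicate 1). For H1299shRAD9 DBP against CTL it was 1 with the 75th percentile, quantile normalization or the authors' values (RPL27A lower in each), and 0 to 1 leaving out a replicate (RPL3L lower without replicate 1). Between lines it was 2 in DBP with the mean of probes and 12 in DBN with all groups in one fit. In BP, where 1 was called, it was 2 with the mean of probes, 0 with the replicate block and 0 to 1 leaving out a replicate (0 without 3, 4 or 5). In BN, where 2 were called, it was 0 with the 75th percentile, quantile normalization, normexp, the 1.3-fold filter, no background filter, the authors' values, arrays scaled to the members or the replicate block, and 0 to 1 leaving out a replicate. RPL27A in BP kept its call in 13 alternatives and lost it in 4, RPS26 in BN in 5 and 11, and RPS29 in BN in 3 and 12. Quantile normalization brought the medians to between −0.05 and 0.06. Under normexp the H1299 BN median was −0.90, and 3 H1299 arrays held spots with a local background over 1000. These were BN replicates 1 and 5 and DBP replicate 3, with normexp member means of 8.49, 7.72 and 8.98. Slide could not be fitted as a fixed block between the lines. The cause was not tested in any of these.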
